A study of Mus musculus with 6 samples.

Results

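The genes described here were the islet hormone and secretory granule genes Ins1, Ins2, Gcg, Sst, Ppy, Iapp, Pyy, Chga, Chgb and Pcsk1 in whole pancreas of mice with acute pancreatitis (AP). They were chosen by name, and all 10 were found by Ensembl gene identifier among the 22556 genes of each table. RNA-sequencing had been performed on the pancreas of wild type C57BL/6 mice in postnatal week 8, with 2 libraries in each of 3 groups. Saline mice were the controls. AP mice received caerulein, a peptide related to cholecystokinin that overstimulates the enzyme-producing acinar cells, as 10 injections of 200 μg/kg, 1 h apart. PolyI:C+AP mice were first given polyI:C at 10 mg/kg and then the same caerulein course. PolyI:C is an artificial RNA duplex that mimics viral RNA. The study's methods give 24 h after the first caerulein injection as the collection time. They also give 8 h of fasting before polyI:C or saline was injected. Between that injection and caerulein they give 1 h or 8 h, without naming the interval for these libraries. No group received polyI:C without caerulein, so polyI:C was compared only within AP. The comparisons asked whether the islet transcripts changed with AP and whether polyI:C pretreatment went with another level.

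The endocrine pancreas is a small part of the organ, set as islets within the exocrine tissue. Beta cells make insulin, which the mouse encodes in the genes Ins1 and Ins2, and co-secrete the amyloid peptide encoded by Iapp. Alpha cells make glucagon (Gcg), delta cells make somatostatin (Sst), and the cells marked by pancreatic polypeptide (Ppy) are the gamma or PP cells. Peptide YY (Pyy) is made by a few islet cells and by cells of the gut wall. These hormones are cut from longer precursors by prohormone convertases such as the one encoded by Pcsk1, and are stored in dense-core granules whose matrix holds the chromogranins encoded by Chga and Chgb. Enteroendocrine cells of the intestine also use Gcg, Pyy, Sst, Chga, Chgb and Pcsk1, so these transcripts mark an islet only where gut tissue is absent.

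The stretches of 250 bases before the RefSeq transcription start are printed for 5 of these genes, because Ins1, Iapp and Sst were lower, and Pcsk1 and Chgb higher, in both polyI:C+AP libraries than in both AP libraries. Sequences and coordinates are those of RefSeq on GRCm38.p6, written 5′ to 3′ on the strand of the gene, and 9 of the 10 genes were matched (Ins2 was not). Capitals mark CATCTG, which reads CAGATG on the other strand and is one form of the E-box bound by basic helix-loop-helix factors, in Ins1 and Iapp, and TGACGTCA, the palindromic cAMP response element, in Sst, Chgb and Pcsk1.
Ins1, chr19:52264047-52264296, plus strand: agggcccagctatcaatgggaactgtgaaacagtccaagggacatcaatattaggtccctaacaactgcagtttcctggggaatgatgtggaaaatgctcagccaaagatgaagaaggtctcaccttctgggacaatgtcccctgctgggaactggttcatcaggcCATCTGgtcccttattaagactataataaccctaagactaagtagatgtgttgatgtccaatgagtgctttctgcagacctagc
Iapp, chr6:142298175-142298424, plus strand: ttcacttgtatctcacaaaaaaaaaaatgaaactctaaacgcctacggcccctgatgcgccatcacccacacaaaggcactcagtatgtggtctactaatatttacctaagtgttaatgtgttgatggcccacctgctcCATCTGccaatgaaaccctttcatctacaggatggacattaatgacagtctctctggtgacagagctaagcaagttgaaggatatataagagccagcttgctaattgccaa
Sst, chr16:23890845-23891094, minus strand: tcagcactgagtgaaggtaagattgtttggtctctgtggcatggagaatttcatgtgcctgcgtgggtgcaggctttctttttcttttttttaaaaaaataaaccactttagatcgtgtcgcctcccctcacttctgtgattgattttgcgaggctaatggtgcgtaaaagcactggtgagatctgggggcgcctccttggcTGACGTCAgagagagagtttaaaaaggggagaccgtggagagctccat
Chgb, chr2:132781392-132781641, plus strand: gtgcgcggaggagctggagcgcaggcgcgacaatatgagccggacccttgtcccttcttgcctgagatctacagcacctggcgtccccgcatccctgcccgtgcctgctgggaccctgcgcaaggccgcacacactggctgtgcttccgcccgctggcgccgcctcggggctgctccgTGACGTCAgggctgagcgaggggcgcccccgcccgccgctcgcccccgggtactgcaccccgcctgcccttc
Pcsk1, chr13:75089607-75089856, plus strand: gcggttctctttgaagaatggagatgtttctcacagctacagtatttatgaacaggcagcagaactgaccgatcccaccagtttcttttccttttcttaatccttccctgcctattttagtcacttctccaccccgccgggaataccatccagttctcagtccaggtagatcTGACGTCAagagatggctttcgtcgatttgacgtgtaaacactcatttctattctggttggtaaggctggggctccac
TGACGTCA was found in 3 of the 9 matched stretches (Sst, Chgb and Pcsk1), and 1.55% of all 32817 RefSeq stretches of the same length held it on either strand. CATCTG was found in 3 of 9 (Ins1, Gcg and Iapp) against 14.5% of all, the TATA box TATAAA, with TTTATA on the other strand, in 2 of 9 (Gcg and Ppy) against 12.4%, and TAATTA, a core bound by homeodomain factors, in 0 of 9 against 4.85%. These matches describe letters in a window and do not show that a factor was bound. Of the 3 genes with TGACGTCA, Sst was lower, and Pcsk1 and Chgb higher, in both polyI:C+AP libraries than in both AP libraries. None of these changes was past the threshold, and a link to the element was not tested.

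The tables hold TPM (transcript abundance per length, scaled to a fixed total), which scales each gene by its length and each library to the same total. The depth of each library is unknown. From the spacing of low values, reads on the listed genes were estimated at 3307966 and 3985234 in the saline libraries. In the other 4 libraries they were between 6896372 and 10875348. This puts 15 (Pyy, saline replicate 2) to 1674 reads (Iapp, polyI:C+AP replicate 2) behind a member's value. Reads on genes without a row are not counted, and only 4 of 16 acinar genes had a row. The estimates therefore do not compare the full depths of the libraries. Because TPM adds up to a fixed total, genes that take a large share move all others. The 15 genes above 1% of any library held 27.6% and 30.4% of the total in saline mice, 16.7% and 19.0% in AP mice, and 15.4% and 16.3% in polyI:C+AP mice. The median of all 16814 tested genes stood at a log2 fold change of 0.45 in AP against saline mice, 0.04 in polyI:C+AP against AP mice and 0.48 in polyI:C+AP against saline mice, and a median-of-ratios scaling moved it to 0.06, 0.02 and 0.06. A fold change against saline is therefore higher on the TPM scale than relative to the median gene, and values under both scalings are given where they differ in a call. In a whole-pancreas library, fewer cells of a type and less RNA per cell cannot be told apart.

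The library of polyI:C+AP replicate 2 stood apart. The summed level of 15 intestinal genes, a list added after the data had been seen, was 62.2 to 169 TPM in the other 5 libraries and 4589 TPM in this one. Fabp1, a fatty acid binding protein of enterocytes, was 1430 TPM there and 0 to 3.35 TPM elsewhere. Cdx1 and Cdx2, transcription factors that define intestinal epithelium, were 10.7 and 14.6 TPM there and at 0 in the other 5 libraries. The gut hormones Gip (11.9 TPM) and Cck (2.78 TPM) were also listed above 0 in this library alone. Fold changes of the 10 genes in polyI:C+AP mice are therefore given with and without this library, and the part of intestinal RNA in them was not tested.

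Ordered by their mean level in saline mice (mean ± SD, n = 2), the 10 genes were Iapp (651 ± 102 TPM), Ins1 (549 ± 140), Ins2 (319 ± 83.2), Ppy (254 ± 163), Chga (146 ± 19.9), Gcg (71.9 ± 57.9), Sst (34.0 ± 0.394), Pyy (25.5 ± 8.08), Chgb (12.7 ± 7.30) and Pcsk1 (12.1 ± 2.02). The saline libraries of Iapp and Ins1, of Ins2 and Ppy, of Ppy and Chga, of Gcg and Sst, and of Chgb and Pcsk1 overlapped, so these neighbours in the order did not differ beyond their spread. The summed level of the 10 genes was 1897 and 2251 TPM in saline mice and 1783 and 2418 TPM in AP mice. It was 1352 and 1712 TPM in polyI:C+AP mice. Saline and AP mice overlapped in this sum, and both polyI:C+AP libraries lay below the other 4. The sum was between 0.135% and 0.242% of the fixed TPM total. Only 4 of 16 acinar genes had a row, and whether that total includes the others is not known. The gene lengths behind the TPM values are not given in the sources used here, so the order of Ins1 and Ins2 depends on the lengths the authors used.

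**Figure D1:**
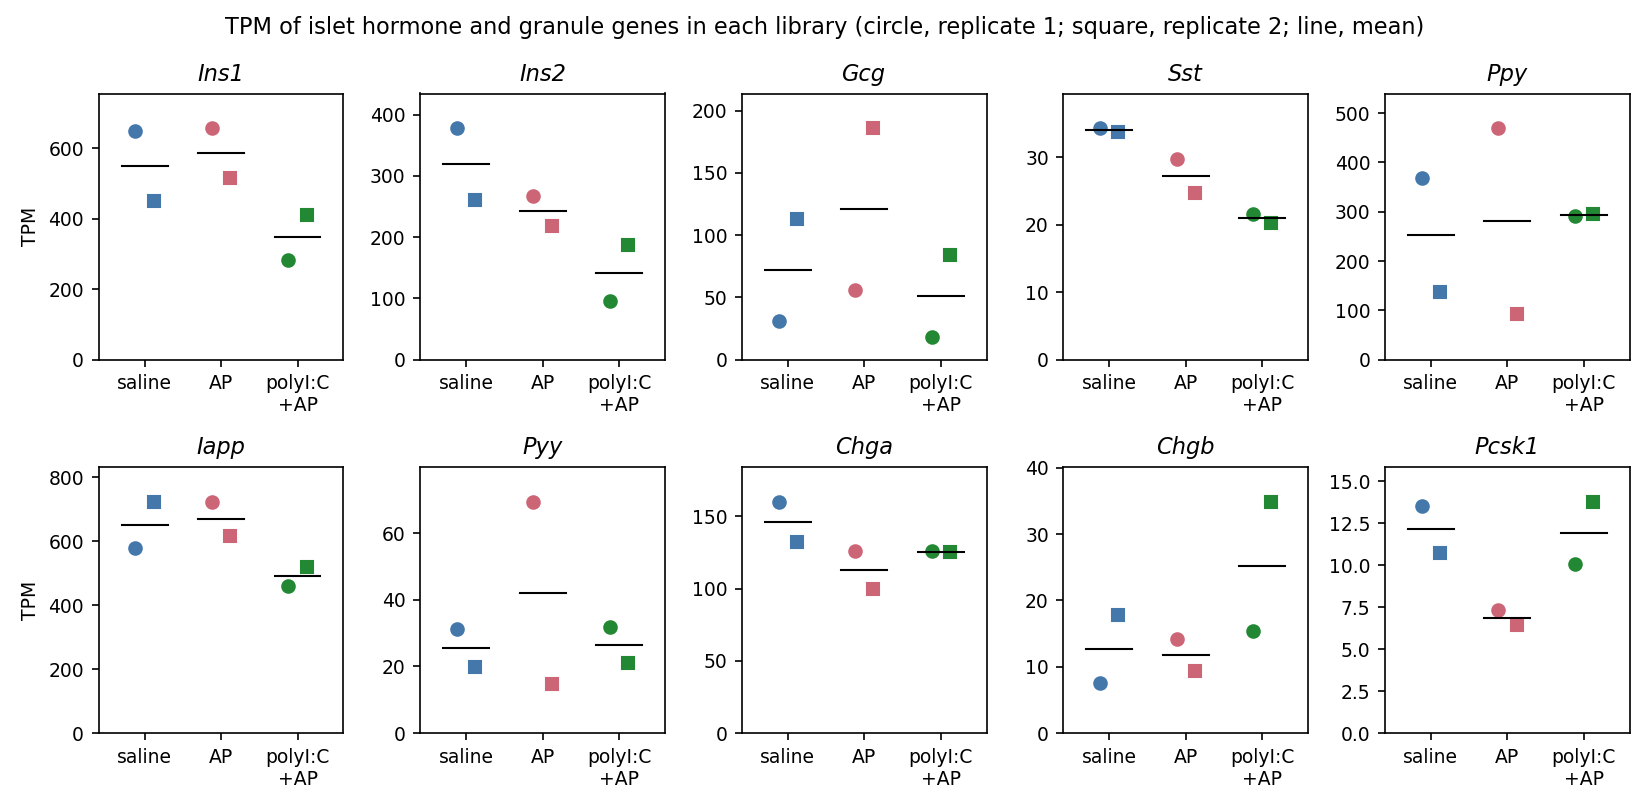
TPM (vertical axis, linear and starting at 0) of each of the 10 genes in the 6 libraries, by group on the horizontal axis. Circles are replicate 1, squares replicate 2 and black lines the mean of the 2 libraries. Ins1, Ins2, Iapp and Sst are lowest in the polyI:C+AP group, Pcsk1 is lowest in the AP group, and the 2 libraries of a group lie far apart for Gcg and, in saline and AP mice, for Ppy.

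The beta-cell hormones were lowest in polyI:C+AP mice, where the change of Ins2 against saline alone passed the test. Their AP libraries overlapped with saline. Ins2, the ancestral insulin gene, of which Ins1 is a retroposed copy, was 378 and 260 TPM in saline mice, 267 and 218 TPM in AP mice, and 95.9 and 188 TPM in polyI:C+AP mice. Both polyI:C+AP libraries were below all others, and the AP libraries overlapped with saline. Ins2 fell by 1.22 on the log2 scale in polyI:C+AP against saline mice, to 0.429 of the saline level (SE 0.33, limma adjusted p = 0.0249), and was the only one of the 10 genes past the threshold (adjusted p of at most 0.05 and a change of at least 2-fold). It stood at -0.84 in polyI:C+AP against AP mice (adjusted p = 0.325) and at -0.38 in AP against saline mice (adjusted p = 0.402). Under the median-of-ratios scaling AP against saline mice gave -0.81 for Ins2 and missed the threshold (adjusted p = 0.114, 0.0676 to 0.862 over 18 settings). Leaving out polyI:C+AP replicate 2, the change was -1.70 against saline (adjusted p = 0.0187) and -1.32 against AP mice (adjusted p = 0.346). The Ins2 call was lost when any one of the other 5 libraries was left out, with log2 fold changes of -0.74 to -1.49 and adjusted p values of 0.0541 to 0.149.

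Ins1, the second insulin gene of the mouse, was 648 and 449 TPM in saline mice, 656 and 515 TPM in AP mice, and 282 and 411 TPM in polyI:C+AP mice. Both polyI:C+AP libraries were again the lowest, and saline and AP mice overlapped. AP against saline mice gave a log2 fold change of 0.11 (adjusted p = 0.765). PolyI:C+AP mice stood at -0.77 against AP mice (adjusted p = 0.227) and at -0.66 against saline mice (adjusted p = 0.0707). Under the median-of-ratios scaling the last of these was -1.12 and past the threshold (adjusted p = 0.0181, 0.00977 to 0.395 over 18 alternative settings). It was -0.93 without polyI:C+AP replicate 2 (adjusted p = 0.0732), and -1.04 against AP mice (adjusted p = 0.433).

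Iapp, which encodes islet amyloid polypeptide, had the steadiest levels of the beta-cell hormones. It was 579 and 723 TPM in saline mice, 723 and 616 TPM in AP mice, and 460 and 520 TPM in polyI:C+AP mice. The polyI:C+AP libraries lay below the other 4, whose values overlapped. On the log2 scale AP mice stood at 0.05 against saline (adjusted p = 0.837). PolyI:C+AP mice stood at -0.45 against AP (adjusted p = 0.235) and -0.40 against saline mice (adjusted p = 0.0664), each under 2-fold. If polyI:C+AP replicate 2 was left out, the value was -0.49 against saline (adjusted p = 0.128) and -0.54 against AP mice (adjusted p = 0.531). Ins1 and Iapp in AP against saline mice turned to -0.32 and -0.38 under the median-of-ratios scaling, and neither passed the threshold there.

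Sst, the delta-cell hormone, followed an order by group with little spread between the libraries of a group. It was 34.3 and 33.7 TPM in saline mice, 29.7 and 24.7 TPM in AP mice, and 21.7 and 20.3 TPM in polyI:C+AP mice. No library of one group overlapped with another group. Its log2 fold change against saline was -0.32 in AP mice (adjusted p = 0.352), with -0.36 in polyI:C+AP against AP mice (adjusted p = 0.599) and -0.69 in polyI:C+AP against saline mice (95% interval -1.28 to -0.09, adjusted p = 0.0694), so none passed the threshold. These levels rest on an estimated 29 to 48 reads per library. Under the median-of-ratios scaling the change against saline was -1.14 and past the threshold (adjusted p = 0.0163, 0.0137 to 0.191 over 18 settings). On the TPM scale it was -0.64 without polyI:C+AP replicate 2 (adjusted p = 0.191), and -0.32 against AP mice (adjusted p = 0.853).

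Gcg, the alpha-cell hormone, varied more within groups than between them. It was 30.9 and 113 TPM in saline mice, 56.0 and 186 TPM in AP mice, and 17.9 and 84.3 TPM in polyI:C+AP mice. Replicate 2 was above replicate 1 in each group, by 3.65-fold, 3.32-fold and 4.70-fold, and all 3 pairs of groups overlapped. The log2 fold changes were 0.78 in AP against saline mice (SE 0.93, adjusted p = 0.546), -1.38 in polyI:C+AP against AP mice (SE 0.93, adjusted p = 0.591) and -0.59 in polyI:C+AP against saline mice (95% interval -2.81 to 1.62, adjusted p = 0.647). A rise or a fall of 2-fold lies within that last interval. When the library with gut hormone transcripts was left out, Gcg was -2.48 against AP mice (adjusted p = 0.597) and -1.69 against saline mice (adjusted p = 0.295).

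Ppy, the hormone of the PP cells, was 369 and 138 TPM in saline mice, 469 and 92.7 TPM in AP mice, and 291 and 295 TPM in polyI:C+AP mice. The AP libraries were the highest and the lowest of the 6, with the polyI:C+AP libraries between them. The log2 fold changes were -0.11 in AP against saline mice (adjusted p = 0.930), 0.49 in polyI:C+AP against AP mice (adjusted p = 0.840) and 0.37 in polyI:C+AP against saline mice (adjusted p = 0.727). Pyy, a gut and islet peptide of the same family, was 31.2 and 19.7 TPM in saline mice, 69.4 and 14.8 TPM in AP mice, and 31.8 and 21.1 TPM in polyI:C+AP mice. Its log2 fold changes were 0.37, -0.31 and 0.06 in the same order, with adjusted p values of 0.713, 0.899 and 0.956. The values of polyI:C+AP mice without replicate 2 were 0.48 against AP and 0.37 against saline mice for Ppy, and -0.016 and 0.35 for Pyy. Ppy and Pyy are neighbours on the minus strand of chromosome 11 in GRCm38 (chr11:102099930-102101319 and chr11:102106676-102107832), with 5356 bases between them. In saline and AP mice the library with more Ppy also had more Pyy, and the ratio of Ppy to Pyy stayed between 6.26 and 13.9 over the 6 libraries.

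Pcsk1, the convertase that makes the first cuts in proinsulin, was 13.5 and 10.7 TPM in saline mice, 7.31 and 6.42 TPM in AP mice, and 10.1 and 13.8 TPM in polyI:C+AP mice. Both AP libraries were below the other 4, and saline and polyI:C+AP mice overlapped. AP against saline mice gave -0.77 on the log2 scale (95% interval -1.28 to -0.26), with an adjusted p of 0.0282 but a size of 0.586 of the saline level, which is under the 2-fold limit. Under the median-of-ratios scaling it was -1.18 and past the threshold (adjusted p = 0.00782, 0.00782 to 0.167 over 18 settings). In polyI:C+AP against AP mice it was 0.74 (95% interval 0.23 to 1.25, adjusted p = 0.190), and 0.52 without polyI:C+AP replicate 2 (adjusted p = 0.635). Against saline, polyI:C+AP mice stood at -0.03 (adjusted p = 0.929), and at -0.25 without that library (adjusted p = 0.489).

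The chromogranin genes did not share an order of the groups. Chga, the main granin of the granule core, was 160 and 132 TPM in saline mice, 126 and 99.7 TPM in AP mice, and 126 and 125 TPM in polyI:C+AP mice. Saline mice were above both other groups, with a log2 fold change of -0.37 in AP (adjusted p = 0.0864) and -0.21 in polyI:C+AP mice (adjusted p = 0.303). Between polyI:C+AP and AP mice it was 0.16 (adjusted p = 0.700), and without polyI:C+AP replicate 2 these last values were -0.21 and 0.17. Chgb, a related granin, was 7.50 and 17.8 TPM in saline mice, 14.2 and 9.32 TPM in AP mice, and 15.5 and 34.9 TPM in polyI:C+AP mice. The highest value came from polyI:C+AP replicate 2, and saline mice overlapped with both other groups. Chgb stood at 0.98 in polyI:C+AP against AP mice (adjusted p = 0.464), and at 0.41 without that library (adjusted p = 0.898). Against saline it stood at 0.97 (adjusted p = 0.180), and at 0.40 without that library (adjusted p = 0.655).

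**Figure D2:**
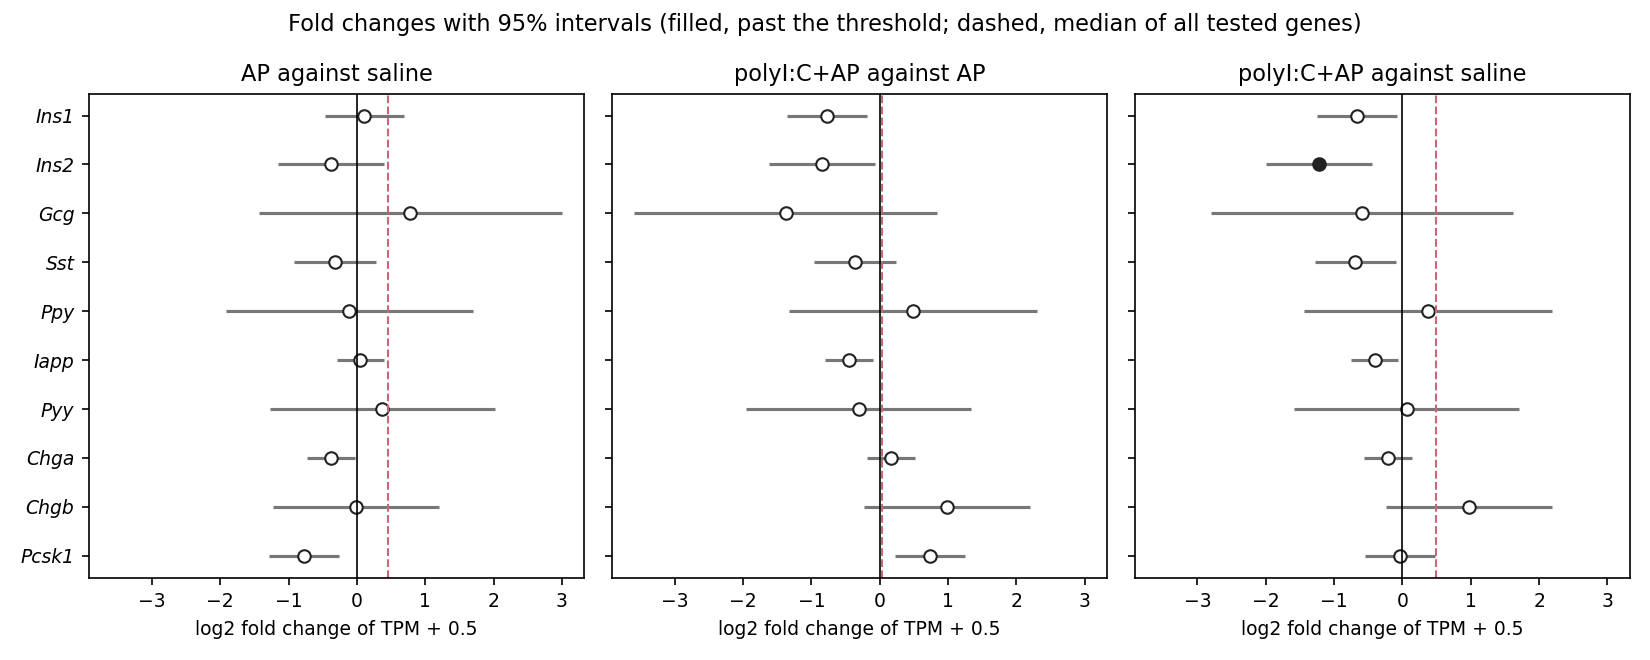
Log2 fold change of TPM + 0.5 (horizontal axis, the same in all panels) for the 10 genes in the 3 comparisons, with lines for the 95% limma intervals. The filled point is past the threshold, and the dashed line is the median of all 16814 tested genes (0.45, 0.04 and 0.48). Ins2 in polyI:C+AP against saline mice is the only filled point, and the intervals of Gcg, Ppy and Pyy are the widest.

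Taking the 10 genes by comparison, AP against saline mice gave 0 calls in limma, while 22.2% of all tested genes were called, 18.2% as higher and 4.03% as lower. None of the 10 was higher in both AP libraries than in both saline libraries, and 52.6% of all genes were. At an unadjusted p of at most 0.05 there were 2 (Chga and Pcsk1), against 48.9% of all genes, and voom on estimated reads called 1 (Pcsk1). Of the 10, 6 had a log2 fold change below 0, against 29.4% of all genes. Under the median-of-ratios scaling this number was 9 of 10, and among all genes the called ones changed from 3053 higher and 677 lower to 1566 higher and 1221 lower. The median of the 10 genes was -0.06 on the TPM scale, where the median of all genes was 0.45. Sst, Chga and Pcsk1 were lower in both AP libraries than in both saline libraries, which is 3 of 10 against 16.4% of all genes.

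PolyI:C+AP against AP mice also gave 0 calls in limma among the 10 genes, in a comparison where 0.845% of all tested genes were called, 0.44% as higher and 0.404% as lower. Voom called 0 as well. At an unadjusted p of at most 0.05 there were 4 (Ins1, Ins2, Iapp and Pcsk1), against 13.9% of all genes. Ins1, Ins2, Iapp and Sst were lower in both polyI:C+AP libraries than in both AP libraries, and 22.1% of all genes were. Pcsk1 and Chgb were higher in both, and 27.7% of all genes were. The median of the 10 genes was -0.34, and -0.17 without polyI:C+AP replicate 2, beside 0.04 for all genes, and 6 of 10 were below 0, against 45.2% of all genes. This comparison shares its AP mice with the one above, and the comparison with saline shares both its groups with the others, so their values are not independent.

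In polyI:C+AP against saline mice 1 of the 10 genes was called, as lower (Ins2), in a comparison where 19.9% of all genes were called, 2.97% as lower and 16.9% as higher. Under the median-of-ratios scaling the called genes were Ins1, Ins2 and Sst, and the calls over all genes changed from 2838 higher and 500 lower to 1325 higher and 982 lower. Ins1, Ins2, Iapp, Sst and Chga were lower in both polyI:C+AP libraries than in both saline libraries, which is 5 of 10 against 14% of all genes. None was higher in both, while 54.4% of all genes were. At an unadjusted p of at most 0.05 there were 4 (Ins1, Ins2, Iapp and Sst), against 48.4% of all genes, and 7 of 10 were below 0, against 26.6%. The median of the 10 genes was -0.31, and -0.37 without polyI:C+AP replicate 2, beside 0.48 for all genes. The smallest two-sided p of an exact permutation test with 2 libraries a group is 0.333, so the p values here rest on the spread that limma borrows across genes.

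The libraries of a group differed more in the islet genes than in most genes. The absolute difference between the 2 libraries of a group in log2(TPM + 0.5) had a median over the 10 genes of 0.53 in saline, 0.34 in AP and 0.49 in polyI:C+AP mice, beside 0.29, 0.19 and 0.21 for all tested genes. It was above the median of all genes for 8, 9 and 6 of the 10. Gcg was the gene with the largest difference in saline and polyI:C+AP mice, and Ppy and Pyy in AP mice. The genes did not all deviate together. In the library with less Gcg of each group Ppy was higher in saline and AP mice and about equal in polyI:C+AP mice.

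**Figure D3:**
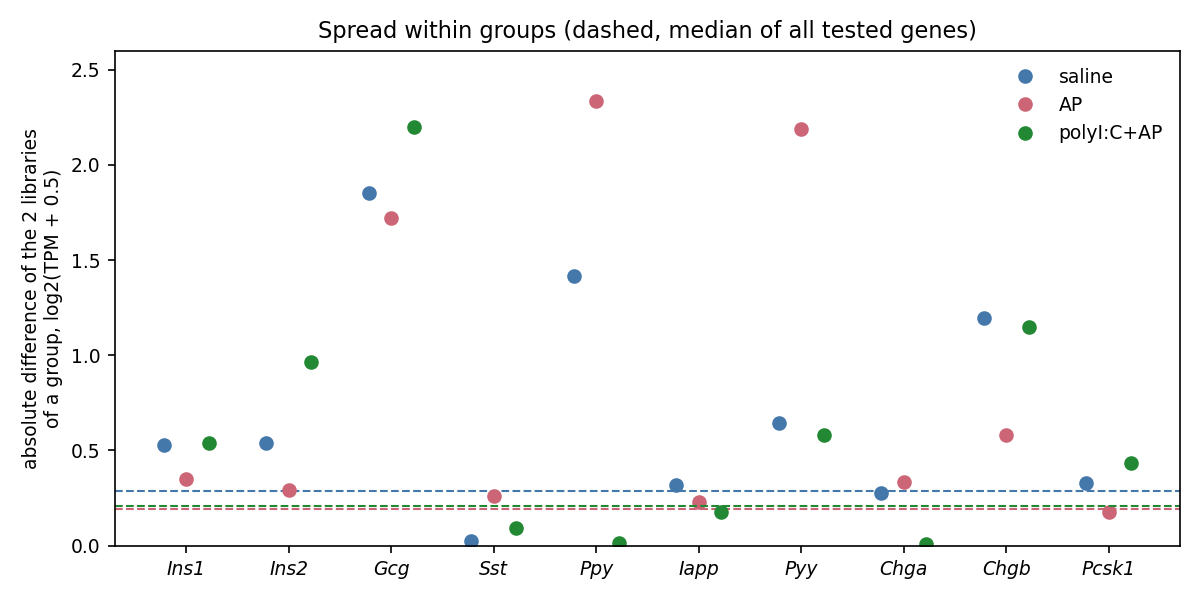
Absolute difference between the 2 libraries of a group in log2(TPM + 0.5) (vertical axis) for each of the 10 genes, coloured by group, with dashed lines for the median of all tested genes in that group (0.29, 0.19 and 0.21). Gcg in all groups and Ppy and Pyy in AP mice are far above the lines, and Sst is near or below them.

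Ratios between transcripts of the same islet cells do not depend on how much islet tissue a piece of pancreas held. Ratios across cell types, such as Ppy to Gcg, Sst to the insulin genes or Chga to Ins2, also depend on the mix of islet cells. Gut cells also make Gcg, Sst, Chga and Pcsk1, and the part of intestinal RNA in their ratios in polyI:C+AP replicate 2, where intestinal genes summed to 4589 TPM, was not tested. The ratio of Ins1 to Ins2 was 1.72 and 1.73 in saline mice, 2.46 and 2.37 in AP mice, and 2.95 and 2.19 in polyI:C+AP mice, so both saline libraries were below the other 4. Its size depends on the gene lengths used for TPM, while its differences between libraries do not. The ratio of Ppy to Gcg was the least steady, at 11.9 and 1.22 in saline mice, 8.38 and 0.499 in AP mice, and 16.2 and 3.49 in polyI:C+AP mice. The ratio of Iapp to the sum of Ins1 and Ins2 was between 0.564 and 1.22, and that of Sst to the same sum between 0.0322 and 0.0573. The ratio of Chga to Ins2 was 0.424 to 0.508 in the saline and AP libraries and 1.31 and 0.666 in polyI:C+AP mice. That of Pcsk1 to Ins2 was 0.0274 to 0.0411 in saline and AP mice and 0.105 and 0.0734 in polyI:C+AP mice. Relative to Ins2, both granule genes were higher in the 2 polyI:C+AP libraries than in the other 4. Ins2, the denominator, was itself lowest in those 2 libraries (95.9 and 188 TPM). In TPM, neither Chga nor Pcsk1 set the polyI:C+AP libraries apart from the other 4, so these ratios are not a separate result for the granule genes. No test was made on these ratios.

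Other genes of the islet gave a mixed picture. Of 54 genes on 5 lists (beta-cell, alpha-cell, delta-cell, pan-endocrine transcription factor, and granule and prohormone processing genes), 52 were in the tables and 41 were tested. In AP against saline mice 3 rose and 7 fell, where 18.2% of all tested genes rose and 4.03% fell. None rose and 1 fell in polyI:C+AP against AP mice, where 0.44% rose and 0.404% fell. Against saline, 3 rose and 4 fell in polyI:C+AP mice, where 16.9% rose and 2.97% fell. With the median-of-ratios scaling 0 rose and 8 fell in each comparison with saline, where 1566 of all 16814 genes rose and 1221 fell in AP, and 1325 rose and 982 fell in polyI:C+AP mice. Of these 8, 7 in AP and 4 in polyI:C+AP mice were also called on the TPM scale. The medians of the 41 genes on the TPM scale were -0.12, 0.14 and -0.0059, beside 0.45, 0.04 and 0.48 for all genes. Leaving out polyI:C+AP replicate 2 leaves a lone library in that group, so counts of calls without it are not given here.

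Among the beta-cell genes 3 of 14 tested fell in AP against saline mice, where 4.03% of all genes fell. Ero1b, an oxidase that forms disulfide bonds in the endoplasmic reticulum, was 2097 and 2095 TPM in saline mice, 278 and 213 TPM in AP mice, and 319 and 325 TPM in polyI:C+AP mice. It fell by 3.10 on the log2 scale in AP (adjusted p = 3.94e-05) and fell by 2.70 in polyI:C+AP against saline mice (adjusted p = 5.82e-05). Its saline level was above that of Ins1 and Ins2 together (709 and 1026 TPM), and the acinar amylase Amy2a5 was 290 and 213 TPM in saline, 22.1 and 16.9 TPM in AP, and 52.6 and 57.2 TPM in polyI:C+AP mice. The part of acinar RNA in the Ero1b level was not tested. Glp1r, the receptor for glucagon-like peptide 1, fell by 1.45 in AP (189 and 186 TPM to 70.2 and 66.3 TPM, limma adjusted p = 0.000108). Its saline level was above that of Slc30a8 (37.9 and 32.0 TPM), and the part of acinar RNA in the Glp1r level was not tested. Slc30a8, the zinc transporter of insulin granules, fell by 1.01 (adjusted p = 0.0294), a call lost without polyI:C+AP replicate 2 (adjusted p = 0.0503). That library enters this comparison only through the shared estimate of the spread, and the fold change was the same without it. The glucose transporter Slc2a2 was 3.93 to 6.94 TPM in the other 5 libraries and 41.6 TPM in polyI:C+AP replicate 2, the library with intestinal transcripts.

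Among 3 tested alpha-cell genes, Slc38a5, a glutamine transporter, went lowest in polyI:C+AP mice. It was 355 and 276 TPM in saline mice, 71.5 and 51.7 TPM in AP mice, and 21.3 and 17.8 TPM in polyI:C+AP mice, with no overlap between groups. It fell by 2.35 in AP against saline mice (adjusted p = 0.000286), fell by 1.62 in polyI:C+AP against AP mice (adjusted p = 0.0223) and fell by 3.97 in polyI:C+AP against saline mice (adjusted p = 5.66e-05). The change against AP mice was -1.49 without polyI:C+AP replicate 2. That setting leaves a lone polyI:C+AP library, so it cannot decide whether the call depends on the library left out. With all 6 libraries kept, the Slc38a5 call against AP mice was lost with no filter on low values and with either other prior variance. Ttr, the thyroxine carrier transthyretin, fell by 1.25 in AP (adjusted p = 0.00596) and fell by 1.11 in polyI:C+AP against saline mice (adjusted p = 0.0105). Gc, the vitamin D binding protein, rose by 1.43 in polyI:C+AP against saline mice (adjusted p = 0.0163), a call lost with the median-of-ratios scaling and without polyI:C+AP replicate 2.

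Among 3 tested delta-cell genes, Cckbr, the gastrin and cholecystokinin B receptor, rose by 1.45 in AP (adjusted p = 0.0246), and with the median-of-ratios scaling it stood at 1.08 and missed the threshold (adjusted p = 0.0792). None of the 4 tested pan-endocrine transcription factors was past the threshold in any comparison, in limma, and 0 had an unadjusted p of at most 0.05. Nkx2-2, the highest of them, was between 2.00 and 4.55 TPM. Of 17 tested granule and processing genes, 2 rose and 2 fell in AP against saline mice, where 18.2% of all genes rose and 4.03% fell. Cpe, the carboxypeptidase that trims hormone precursors after the convertases, rose by 1.07 (90.3 and 72.8 TPM to 175 and 167 TPM, adjusted p = 0.000899), and was under 2-fold with the median-of-ratios scaling (0.64). Stx1a, a syntaxin of the fusion machinery, rose by 1.34 (adjusted p = 0.0108), and stood at 0.97 with that scaling. Rab3a, a small GTPase of secretory vesicles, fell by 1.74 (adjusted p = 0.00505), and Ptprn2, a phosphatase-like protein of the granule membrane, fell by 1.06 (adjusted p = 0.00605). Against saline, Rab3a fell by 1.18 in polyI:C+AP mice (adjusted p = 0.0245), and Stx1a and Scgn, the calcium sensor secretagogin, rose by 1.14 (adjusted p = 0.0211) and 1.26 (adjusted p = 0.0454). With the median-of-ratios scaling these stood at 0.75 and 0.84 and missed the threshold. Without polyI:C+AP replicate 2 they were as large, at 1.18 (adjusted p = 0.0771) and 1.30 (adjusted p = 0.147). Also without that library, Rab3a fell by 1.44 (adjusted p = 0.0420), Ero1b fell by 2.71 (adjusted p = 0.00541) and Ttr fell by 1.31 against saline mice (adjusted p = 0.0340).

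**Figure D4:**
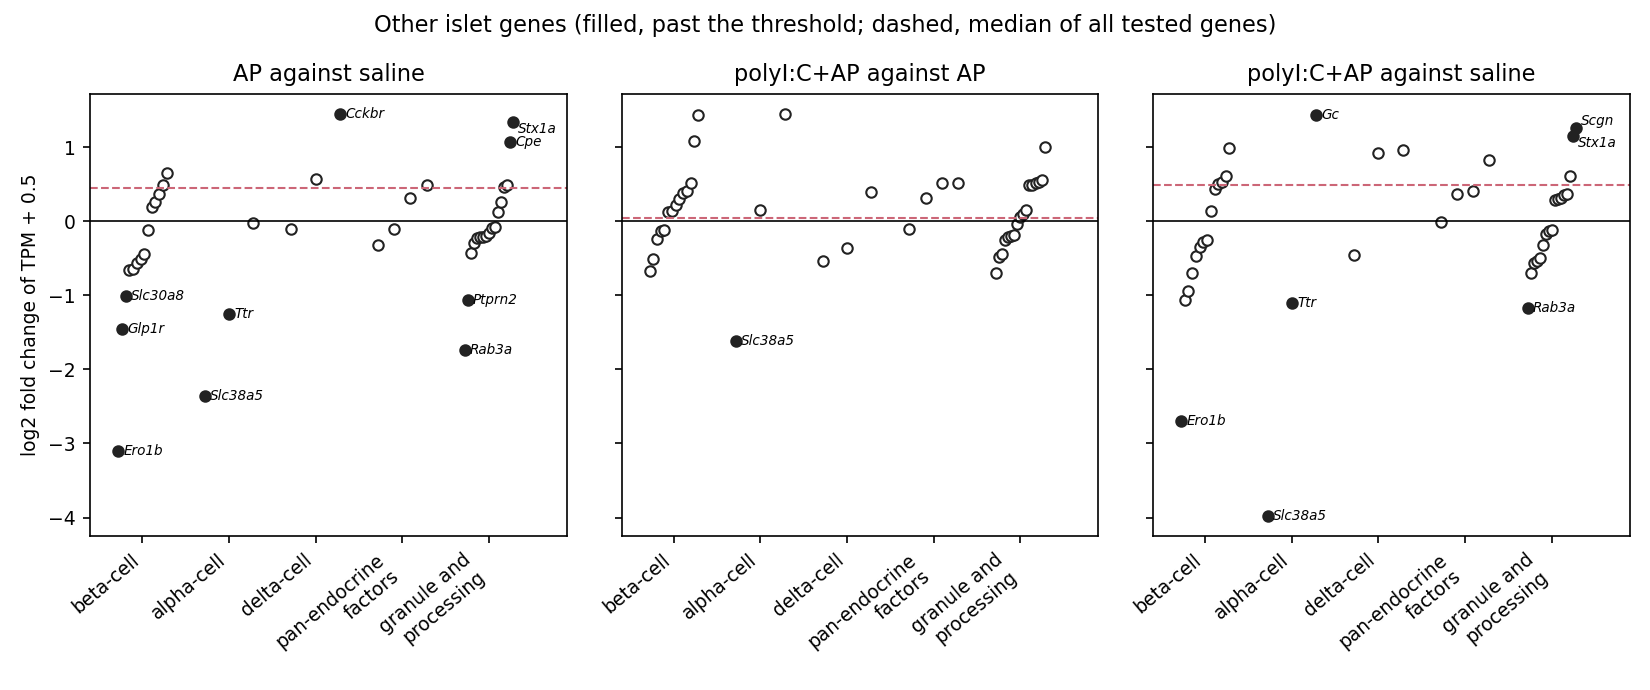
Log2 fold change of TPM + 0.5 (vertical axis) of the 41 tested genes of the 5 other islet lists (horizontal axis) in the 3 comparisons, 1 point per gene, with filled and named points past the threshold and dashed lines at the median of all tested genes. Ero1b and Slc38a5 lie lowest in the comparisons with saline, and Slc38a5 is the only filled point in polyI:C+AP against AP mice.

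Other peptides of islets, nerves or gut were also on the lists, and 5 of 10 were tested. Galanin (Gal) fell by 2.60 in AP (342 and 216 TPM to 51.9 and 37.9 TPM, adjusted p = 0.000496) and fell by 3.37 in polyI:C+AP against saline mice (24.1 and 27.7 TPM, adjusted p = 0.000228), and without polyI:C+AP replicate 2 it fell by 3.47 (adjusted p = 0.00859). Neuropeptide Y (Npy), which is in the same family as Ppy and Pyy, was 1.21 and 1.49 TPM in saline mice, 19.0 and 8.50 TPM in AP mice, and 1.35 and 1.07 TPM in polyI:C+AP mice. It rose by 2.85 in AP (adjusted p = 0.0108), and the polyI:C+AP libraries lay below both AP libraries at -2.96 (adjusted p = 0.0872). Vasoactive intestinal peptide (Vip), known from nerves of the gut and pancreas, rose by 2.50 in AP (adjusted p = 0.00262) and by 1.51 in polyI:C+AP against saline mice (adjusted p = 0.0204), and without polyI:C+AP replicate 2 the second was as large (1.53) but not called (adjusted p = 0.0914). The nerve list gave 1 call of 3 tested genes in each comparison with saline (Uchl1, higher), where 18.2% (AP) and 16.9% (polyI:C+AP) of all tested genes were called as higher.

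**Figure D5:**
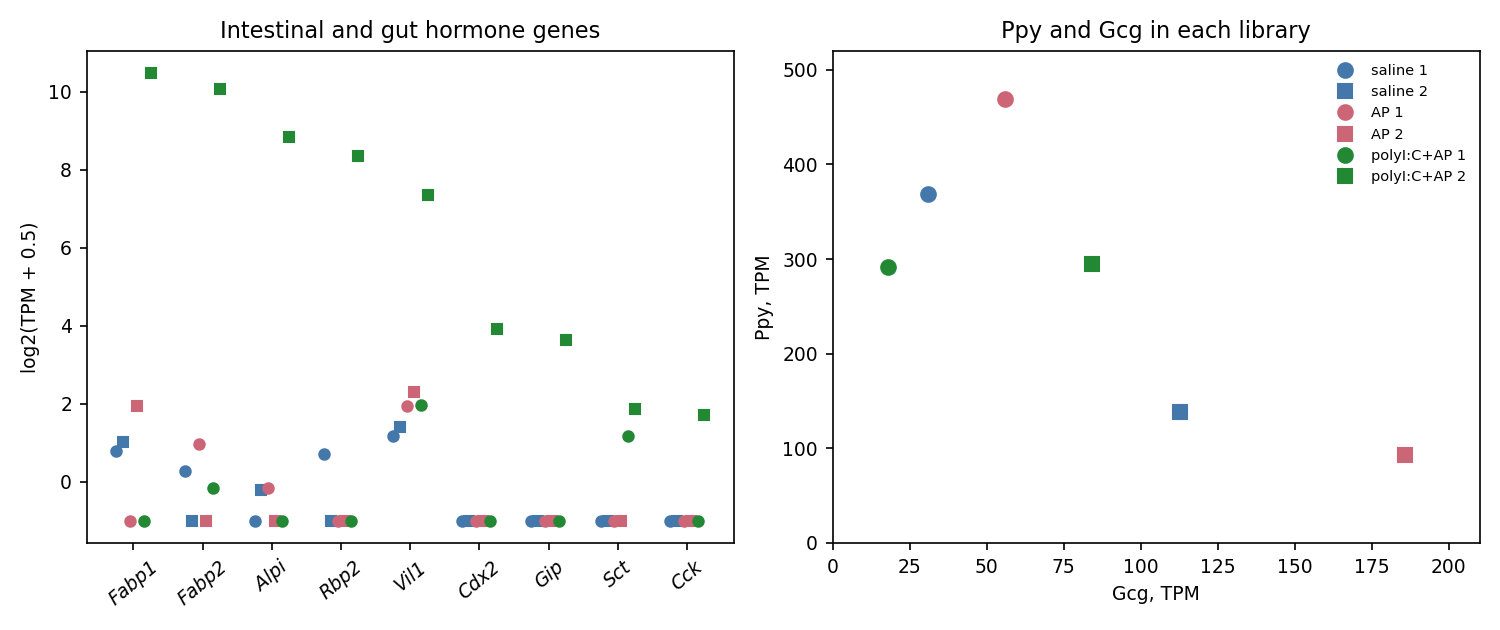
Left, log2(TPM + 0.5) of 9 intestinal or gut hormone genes in the 6 libraries, where -1 on the axis is a TPM of 0. Right, Ppy against Gcg in TPM on linear axes, 1 point per library. PolyI:C+AP replicate 2 (green square) is above all other libraries for each gene on the left, and in saline and AP mice the library with more Gcg has less Ppy.

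Markers of the cells around the islets also moved with the groups. Of 16 acinar genes 4 were found in the tables used here, and their sum was 775 and 964 TPM in saline mice, 187 and 235 TPM in AP mice, and 478 and 518 TPM in polyI:C+AP mice. Of these 4 genes, 3 fell in AP against saline mice, where 4.03% of all tested genes fell. In polyI:C+AP mice 3 rose against AP, where 0.44% rose, and 2 fell against saline, where 2.97% fell. Ptf1a was past the threshold in none of these, and was higher in both polyI:C+AP libraries than in the other 4. It was 44.5 and 40.8 TPM in saline mice, 55.2 and 43.4 TPM in AP mice, and 67.3 and 98.3 TPM in polyI:C+AP mice. The sum of 7 duct genes was 269 and 301 TPM, 2357 and 2371 TPM, and 1984 and 2147 TPM in the same order. Of the 7, 5 were called as higher in both comparisons with saline, where 18.2% (AP) and 16.9% (polyI:C+AP) of all tested genes were. The leukocyte genes summed to 354 and 519 TPM in saline, 2069 and 2336 TPM in AP, and 181 and 277 TPM in polyI:C+AP mice, most of it from the lysozyme gene Lyz2 (307 and 444, 1891 and 2118, and 119 and 203 TPM). Of 9 tested leukocyte genes 5 rose in AP against saline mice, where 18.2% of all tested genes rose. In polyI:C+AP against AP mice 3 of the 9 fell, where 0.404% of all tested genes fell. Against saline, 1 rose in polyI:C+AP mice (the macrophage gene Cd68, by 1.78, limma adjusted p = 0.00132) and 2 fell, where 16.9% of all tested genes rose and 2.97% fell. Of 4 tested adipocyte genes 0 were called in limma, with 0 at an unadjusted p of at most 0.05. The part of these shifts in the hormone levels was not tested.

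Over the 6 libraries, among 9404 genes averaging 10 TPM or more, those most like single hormones in pattern were ranked by Pearson's r as a description, and the points share their libraries and scaling. For Ins2 these were Sh2b3 (0.989), Slc25a10 (0.963) and Gm13226 (0.961). For Sst they were Gm25911 (0.992), Phf1 (0.991) and the trypsinogen gene Try10 (0.990), which went from 11529 and 9688 TPM in saline to 5873 and 3614 TPM in AP and 2693 and 2384 TPM in polyI:C+AP mice. For Gcg they were Snord93 (0.961), Rhobtb3 (0.958) and Gm10263 (0.957). For the mean of the 10 genes they were Zfc3h1 (0.955), Hspe1-ps3 (0.954), Sfmbt1 (0.941), Zfand3 (0.907) and Mvb12b (0.905). With 6 points and so many genes ranked, values of this size say little about any one of them.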

How the data were processed

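RNA-sequencing libraries of mouse pancreas were used, 2 per group in 3 groups taken from the sample labels. The authors deposited TPM values per Ensembl gene and library. Per the labels and the study's methods, reads were trimmed with Trimmomatic, mapped to mm10 with STAR and counted with HTSeq. The step from counts to TPM, the annotation and the gene lengths are not given in the sources used here. The authors' own tests used DESeq2, and no column of them was used. Depth is unknown. Reads per library on the listed genes were estimated from the spacing of low TPM × exon length. There, 33.5% to 38.5% of low values were near whole multiples (within 0.1) against 19.3% to 20.8% with lengths shuffled.

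Identifiers were matched to GENCODE M21 on GRCm38 for 22490 of 22556 genes. No stretch of 100 bases of the 10 genes was shared with another gene. Tests were made with limma 3.58.1 (R 4.3.3) on log2(TPM + 0.5), with 1 coefficient per group over all 6 libraries, a prior variance following log2(mean TPM × exon length + 1), and Benjamini-Hochberg adjustment over 16814 genes whose mean TPM was 1 or more. All tests were two-sided. A fold change on this scale understates the change of low genes. The labels do not say whether the libraries of a group came from separate cages or days, so p values measure the spread between these samples. The script was tested on simulated data. Voom from limma, with median-of-ratios library sizes, was run on the estimated reads as an alternative. The other settings were the pseudocount, the filter, the prior, 3 scalings of TPM, the replicate number as a block, the 4 libraries compared alone and leaving out each library.

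The 10 genes and all lists were chosen with earlier results of these data known. Named list genes were those past the threshold in any comparison, at most 6 per list by mean TPM, otherwise the 3 highest, and those that a result turned on (Slc2a2, Amy2a5, Ptf1a and the intestinal genes, chosen after their values were seen). Genes of like pattern were the 5 or 3 of highest Pearson's r. One gene of the lists is not reported here.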

Additional observations from a re-analysis of the deposited data

How the results depend on the processing

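The 10 genes gave 30 log2 fold changes, recomputed under 18 settings. Leaving out single libraries aside, 334 values kept their direction and side of the threshold, 15 reversed, 7 passed and 4 lost the threshold, and none of the reversed values was past it. With the median-of-ratios scaling, AP against saline mice gave -0.32 (Ins1), -0.38 (Iapp) and -0.054 (Pyy), and polyI:C+AP against saline mice -0.080 (Ppy) and -0.38 (Pyy). With voom these were -0.36, -0.40, -0.29, -0.16 and -0.51. Without the genes above 1% of any library they were -0.10 (Ins1), -0.16 (Iapp) and -0.18 (Pyy against saline in polyI:C+AP). Scaled to other islet genes, Chgb was 0.016 in AP against saline and Pyy -0.034 in polyI:C+AP against saline mice.

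Calls among the 10 genes in AP against saline mice went from 0 to 1 (Pcsk1) with the median-of-ratios scaling, with voom and with no fold limit. In polyI:C+AP against saline mice they went from 1 to 3 (Ins1, Ins2 and Sst) with the first 2 of these. They went to 0 with no filter (Ins2 adjusted p = 0.0536), with a prior following mean log2 TPM, with a constant prior, and with only the 4 libraries compared. Other islet genes in polyI:C+AP against AP mice gave 0 calls with no filter and with either other prior, beside 1 as reported (Slc38a5). They gave 2 with voom and 3 with an unadjusted p. The cause was not tested.

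Over all tested genes, same-numbered libraries did not deviate together (r of the deviations 0.0075, 0.035 and -0.0039 between groups). A correlation over all genes cannot exclude a pairing that touches only a few of them. With the replicate number as a block, 1 of the 10 genes was called in polyI:C+AP against AP mice (Gcg, -1.38, adjusted p = 0.0287, 0.0287 to 0.958 over all settings). Gcg was 0.78 in AP against saline mice with the block (adjusted p = 0.0109, under 2-fold), and Ins2 remained called against saline.

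Leaving out each library in turn reversed 21 values. In AP against saline mice the ranges were -0.16 to 0.37 for Ins1, -0.14 to 1.71 for Gcg, -1.28 to 1.05 for Ppy, -0.11 to 0.21 for Iapp, -0.73 to 1.46 for Pyy and -0.61 to 0.59 for Chgb. In polyI:C+AP against AP mice the ranges were -0.68 to 1.65 for Ppy, -1.40 to 0.79 for Pyy and -0.0042 to 0.33 for Chga. In polyI:C+AP against saline mice the ranges were -1.69 to 0.51 for Gcg, -0.33 to 1.08 for Ppy, -0.26 to 0.39 for Pyy and -0.25 to 0.19 for Pcsk1.
Calls among the 10 genes ranged from 0 to 0, 0 to 0 and 0 to 1 in AP against saline, polyI:C+AP against AP and polyI:C+AP against saline mice, and among other islet genes from 5 to 9, 0 to 1 and 3 to 5. A lone library left in a group is assumed to vary like the others. Sst rested on an estimated 29 to 48 reads per library and Pyy on 15 to 93, which limits the precision of both.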
